A study of Homo sapiens with 4 samples.

Results

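The transcripts examined here are those of 43 human genes of homologous recombination, Fanconi anemia repair and the DNA damage checkpoint, measured in MHCC97H cells, an established human hepatocellular carcinoma (HCC) line, with and without knockdown of UBXN1. The genes were taken by name, from a list of pathway members written with earlier results of these data known, among 61541 Ensembl gene identifiers in the deposited table, and all 43 were among the 16863 genes that passed the filter on low counts. RNA was sequenced from 4 libraries, 2 of control cells (shCon, genotype labelled control) and 2 of cells given an shRNA against UBXN1 (shUBXN1), so that the comparison asks which of these transcripts differ when UBXN1 is reduced. The study delivered its shRNAs in the lentiviral vector pLKO.1 and named an shRNA against RFP as the control in its methods, while the labels name shCon. Which UBXN1 shRNA the sequenced cells carried is not given in the sources used here, so effects of the shRNA on other targets were not tested. The labels do not say whether replicates 1 and 2 were separate cultures, so the p-values measure only the spread between these libraries, which may be technical.

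Homologous recombination repairs a broken chromosome by copying from an intact sister. The MRE11-RAD50-NBN complex finds the end, nucleases trim it to single-stranded DNA, and BRCA1, PALB2 and BRCA2 prepare that strand to invade the sister duplex, with the help of paralog complexes and of RAD54 proteins. The Fanconi anemia pathway handles strands joined by an interstrand crosslink: a core complex, working with the ubiquitin-conjugating enzyme UBE2T, attaches ubiquitin to FANCD2 and FANCI, which recruit nucleases, and recombination finishes the repair. Most of these proteins are used in S and G2 phase, and their transcripts are in general more abundant in dividing cells. In bulk RNA, fewer cells of a kind, such as cells in S phase, and less RNA per cell cannot be told apart.

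Total counts per library were 27380508 and 24305174 for shCon and 23433826 and 23373700 for shUBXN1. UBXN1 itself was at 67.1 and 77.3 CPM (counts scaled to a common library total) in the shCon libraries and at 16.8 and 18.5 in the shUBXN1 libraries, or 24.5% of the control level (log2 fold change -2.03, SE 0.0963, adjusted p = 9.98e-10 by edgeR's quasi-likelihood test, p adjusted after Benjamini-Hochberg over all genes tested). All levels below are CPM scaled by edgeR's TMM method, given for shCon replicates 1 and 2 and then for shUBXN1 replicates 1 and 2, and a gene is said to have risen or fallen where the adjusted p of that test was under 0.05. A CPM value compares one gene between libraries and not different genes, since it is not corrected for transcript length.

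Of the 43 genes, 30 fell in shUBXN1, 1 rose and 12 did not pass the test. Among all genes tested, 28.2% fell and 28% rose at the same threshold, and the share of the 43 that fell was 69.8%. Their log2 fold changes had a median of -0.54, beside 0.016 for all genes tested, with a range from -1.09 for UBE2T to 0.62 for RAD51B, and 38 of the 43 values were negative. In 34 genes both shUBXN1 libraries lay below both shCon libraries, against 38.6% of all genes tested, and in 2 genes, RAD51B and ATM, they lay above, against 39.4%. The falls were moderate. At the study's own cut-offs, a fold change of at least 2 with an unadjusted p under 0.05, 1 gene was lower, UBE2T, and 0 were higher. Of all genes tested, 6.09% were lower and 11.8% higher. The p used here was that of edgeR's test, whereas the study's methods name limma. Summed over the 43 genes, TPM (a level corrected for transcript length) came to 1109 and 1089 in shCon and to 819.7 and 790.3 in shUBXN1, or 73.3% of the control level.

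**Figure D1:**
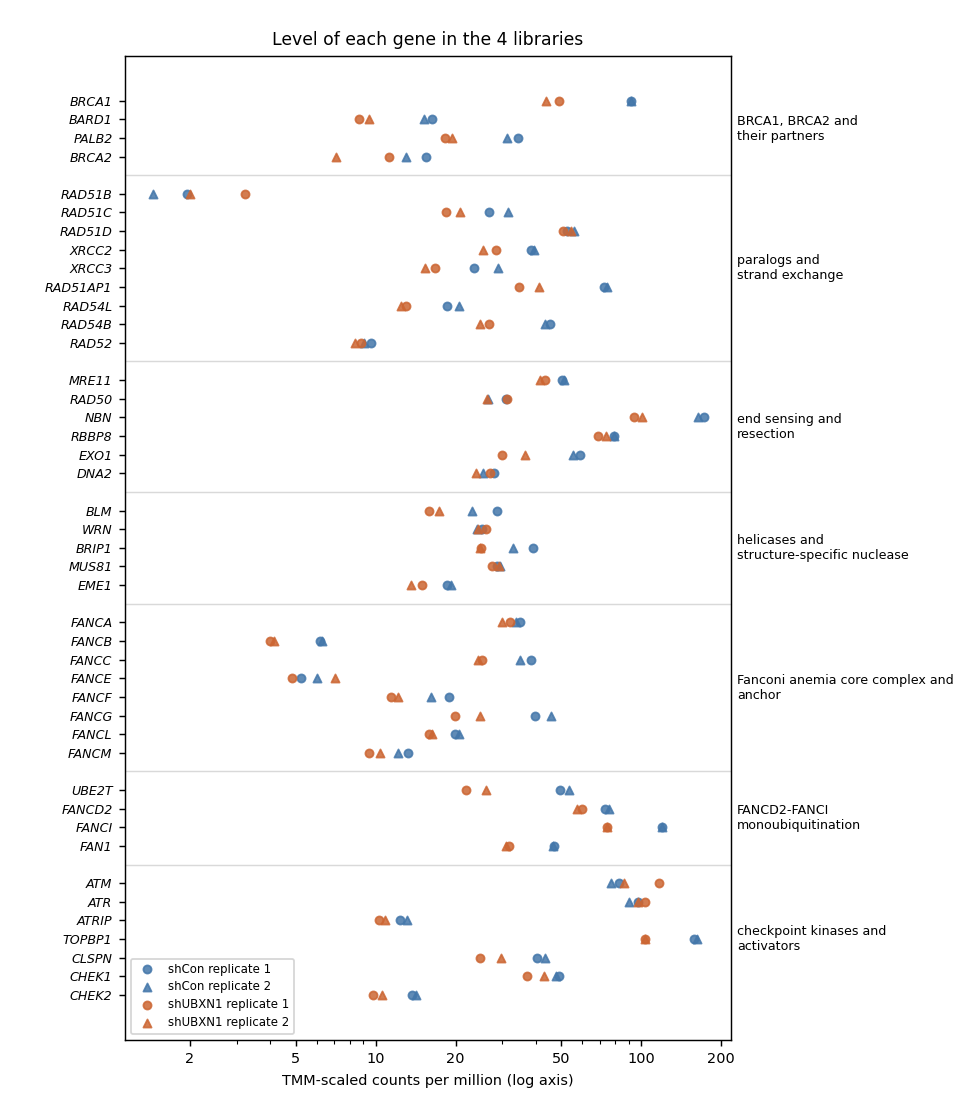
Level of each of the 43 genes in the 4 libraries, in TMM-scaled CPM on a log axis, with shCon in blue, shUBXN1 in orange, circles for replicate 1 and triangles for replicate 2. In 34 genes both orange symbols lie to the left of both blue ones, and in RAD51B and ATM they lie to the right.

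Because many of these genes moved together, their promoters were read for motifs known from cell cycle genes. Promoter sequences of 250 bases before and 50 after the start were matched in RefSeq (GRCh38.p14) for 38 of the 43 genes, those of RAD54B, NBN, DNA2, WRN and FANCI being unmatched. An E2F motif, searched on both strands as TTTCCCGC, TTTCGCGC, TTTGCCGC or TTTGGCGC, stood in 6 of the 38 promoters (15.8%), against 4.37% of the 15339 promoters of protein-coding genes. These 6 belonged to XRCC2, EXO1, FANCA, FANCD2, TOPBP1 and CLSPN, of which all but FANCA fell, with a median log2 fold change of -0.58, while 22 of the 32 genes without the motif fell, with a median of -0.49. A CCAAT box stood in 18 of 38 (47.4%, against 36.3% of protein-coding promoters), of which 14 fell, beside 13 of the 20 without it. The cell cycle homology region core TTTGAA stood in 3 of 38 (7.89%, against 12.5%), those of BRIP1, UBE2T and ATM, which include the gene with the largest fall of the 43 and the one that rose. The 15339 promoters include those of genes that failed the filter on low counts, whereas all 38 genes passed it. No share was taken over tested genes only. A match is only a match of letters, and its absence from these 300 bases says nothing of a factor elsewhere.

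Shown here, 5′ to 3′ in the direction of the gene, are 142 bases of promoters (130 before the start and 12 from the start on) of UBE2T and RAD51AP1, 2 of the 3 genes that fell most, of 4 genes with an E2F match and of ATM, the gene that rose. Capitals mark matches to the motifs above on either strand, so that GCGGGAAA and ATTGG are the reverse complements of an E2F match and of a CCAAT box.
UBE2T, chr1:202341925-202342066, minus strand: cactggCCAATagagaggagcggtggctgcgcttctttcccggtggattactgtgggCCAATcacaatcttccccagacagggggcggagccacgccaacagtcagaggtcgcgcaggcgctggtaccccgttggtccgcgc
RAD51AP1, chr12:4538760-4538901, plus strand: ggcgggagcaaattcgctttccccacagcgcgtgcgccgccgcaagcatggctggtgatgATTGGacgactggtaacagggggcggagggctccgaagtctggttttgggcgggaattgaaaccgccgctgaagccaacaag
EXO1, chr1:241848074-241848215, plus strand: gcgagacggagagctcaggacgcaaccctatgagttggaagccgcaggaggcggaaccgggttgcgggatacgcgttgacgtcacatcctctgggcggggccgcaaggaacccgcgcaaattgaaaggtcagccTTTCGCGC
TOPBP1, chr3:133661930-133662071, minus strand: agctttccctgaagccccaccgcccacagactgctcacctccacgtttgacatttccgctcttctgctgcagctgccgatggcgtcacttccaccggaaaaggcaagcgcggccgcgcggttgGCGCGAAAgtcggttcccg
CLSPN, chr1:35769967-35770108, minus strand: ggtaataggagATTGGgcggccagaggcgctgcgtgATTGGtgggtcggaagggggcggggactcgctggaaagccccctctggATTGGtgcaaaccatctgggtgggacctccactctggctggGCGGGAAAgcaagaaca
FANCD2, chr3:10026307-10026448, plus strand: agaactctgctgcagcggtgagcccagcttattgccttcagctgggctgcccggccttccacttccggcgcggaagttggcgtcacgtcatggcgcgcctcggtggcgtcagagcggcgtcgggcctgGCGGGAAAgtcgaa
ATM, chr11:108222937-108223078, plus strand: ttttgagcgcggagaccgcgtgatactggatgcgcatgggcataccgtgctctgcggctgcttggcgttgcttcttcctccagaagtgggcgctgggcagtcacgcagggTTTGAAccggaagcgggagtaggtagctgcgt
The UBE2T window held 2 CCAAT matches and that of CLSPN 3, beside its E2F match, whereas the EXO1, TOPBP1 and FANCD2 windows held 1 E2F match each near the start. The ATM window held TTTGAA and neither of the other motifs. Upstream of the printed windows, the ATM promoter also held a CCAAT match, at bases -188 to -184 from the start. The UBE2T promoter also held a TTTGAA match there, at -153 to -148.

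BRCA1, BRCA2 and their partners all fell, 4 of 4 genes, with a median log2 fold change of -0.80 and a summed level, in TPM, of 56.6% of the control. BRCA1 (chr17:43044295-43170245, minus strand), the ubiquitin ligase subunit that directs breaks towards recombination, was at 91.5 and 91.9 CPM in shCon and 49.1 and 43.7 in shUBXN1 (log2 fold change -0.98, SE 0.0798, adjusted p = 1.47e-07). Its 2 control libraries nearly coincided and both knockdown libraries were at about the same lower level. BARD1, the partner that completes this ligase, was at 16.2 and 15.2 CPM against 8.65 and 9.48 (-0.80, SE 0.128, adjusted p = 1.09e-04). PALB2, the bridge from BRCA1 to BRCA2, was at 34.3 and 31.3 CPM against 18.3 and 19.4, a log2 fold change (-0.80, SE 0.0976, adjusted p = 8.16e-06) equal to that of BARD1 at 2 decimals. BRCA2 (chr13:32315086-32400268, plus strand), which acts on the single-stranded DNA after resection, was at 15.5 and 13.0 CPM against 11.2 and 7.09 (-0.64, SE 0.182, adjusted p = 0.0080). The groups did not overlap in any of the 4 genes, where 38.6% of all genes tested were lower without overlap. The shUBXN1 libraries of BRCA2 lay far apart: its log2 fold change was -1.02 without shUBXN1 replicate 1 and -0.36 without shUBXN1 replicate 2. The fall of BRCA2 also missed the threshold under total count scaling (adjusted p = 0.0659) and with limma on TPM (adjusted p = 0.149).

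Of the 9 paralogs and strand exchange genes, 6 fell and 3 did not pass the test (median log2 fold change -0.57). RAD51AP1 (chr12:4538798-4560047, plus strand), which stimulates strand invasion, fell most of these, from 72.3 and 74.6 CPM to 34.6 and 41.1 (-0.96, SE 0.0888, adjusted p = 5.64e-07). Both RAD54 translocases, which remodel the joint between the strands, fell. RAD54B was at 45.4 and 43.3 CPM against 26.6 and 24.7 (-0.79, SE 0.0871, adjusted p = 3.09e-06). RAD54L was at 18.5 and 20.6 CPM against 13.0 and 12.5 (-0.62, SE 0.116, adjusted p = 3.78e-04). The paralogs, which aid strand exchange in complexes of several subunits, did not share one course. XRCC3 was at 23.5 and 28.9 CPM against 16.8 and 15.4 (-0.70, SE 0.118, adjusted p = 1.63e-04). Its partner in a dimer, RAD51C, was at 26.8 and 31.5 CPM against 18.4 and 20.8 (-0.57, SE 0.110, adjusted p = 5.07e-04). XRCC2 was at 38.6 and 39.5 CPM against 28.5 and 25.3 (-0.54, SE 0.0908, adjusted p = 1.65e-04). All 3 of these paralogs fell without overlap, where 38.6% of all genes tested were lower without overlap. RAD51D, which binds XRCC2, was at 52.4 and 56.1 CPM in shCon and 50.9 and 54.3 in shUBXN1, with overlapping groups (-0.04, SE 0.0790, adjusted p = 0.655).

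RAD51B, the remaining paralog, had the lowest level of the 43 genes per length, 2.04 TPM in shCon, and the least certain change. It was at 1.95 and 1.45 CPM in shCon and 3.23 and 2.01 in shUBXN1, with a log2 fold change of 0.62 (SE 0.344, adjusted p = 0.140), and passed the test only without shUBXN1 replicate 2 (0.91, adjusted p = 0.0394). RAD52, which anneals single strands, was at 9.64 and 9.07 CPM against 8.85 and 8.33 (-0.12, SE 0.147, adjusted p = 0.499). Its groups did not overlap, but its change was smaller than its standard error.

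End sensing and resection divided into 3 genes that fell and 3 that did not pass the test (median -0.20). Within the MRE11-RAD50-NBN complex, the scaffold and signaling subunit NBN fell from 172 and 164 CPM to 94.2 and 100.7 (-0.78, SE 0.0746, adjusted p = 7.06e-07). The nuclease MRE11 fell less, from 50.2 and 51.3 CPM to 43.3 and 41.7 (-0.26, SE 0.0779, adjusted p = 0.0118), and its call was lost without shCon replicate 1 (adjusted p = 0.0528) or shCon replicate 2 (adjusted p = 0.119), at log2 fold changes of -0.27 and -0.26. It was also lost, with a smaller change, under total count scaling (-0.17, adjusted p = 0.0794) and with limma on TPM (-0.19, adjusted p = 0.0734). The ATPase RAD50 was at 31.0 and 26.6 CPM against 31.1 and 26.4, with pairs of libraries at nearly equal values (-0.0047, SE 0.108, adjusted p = 0.974). The 3 subunits thus had log2 fold changes from -0.78 to -0.0047, and the differences between them were not tested. Of the resection nucleases, EXO1, the exonuclease for long tracts, fell from 58.7 and 55.3 CPM to 30.0 and 36.5 (-0.78, SE 0.0952, adjusted p = 8.34e-06). DNA2, the nuclease-helicase that works beside it, was at 27.8 and 25.3 CPM against 27.1 and 23.8, with overlapping groups (-0.06, SE 0.101, adjusted p = 0.624). RBBP8, which encodes CtIP and starts resection with MRE11, was at 78.7 and 78.8 CPM against 68.6 and 73.6 (-0.15, SE 0.0746, adjusted p = 0.110). It lay lower in both shUBXN1 libraries and passed the test only without shUBXN1 replicate 2 (-0.21, adjusted p = 0.0165).

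Among 5 helicases and structure-specific nuclease genes, 3 fell (median -0.41). Of the RecQ helicases, BLM, which dissolves double Holliday junctions, fell from 28.7 and 23.1 CPM to 15.9 and 17.3 (-0.64, SE 0.119, adjusted p = 3.67e-04), whereas WRN was at 25.2 and 24.1 CPM against 25.9 and 24.2, with overlapping groups (0.025, SE 0.0960, adjusted p = 0.844). BRIP1, the BRCA1-binding helicase also called FANCJ, fell from 39.0 and 33.0 CPM to 24.9 and 24.8 (-0.53, SE 0.0988, adjusted p = 3.59e-04). MUS81 and EME1 form a nuclease that cuts branched DNA. The catalytic subunit MUS81 was at 28.5 and 29.5 CPM against 27.4 and 29.1 (-0.04, SE 0.0907, adjusted p = 0.732), and its partner EME1 fell from 18.6 and 19.2 CPM to 15.0 and 13.6 (-0.41, SE 0.112, adjusted p = 0.00683).

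Of 8 genes of the Fanconi anemia core complex and its anchor, 6 fell (median -0.47). FANCG (chr9:35073835-35080004, minus strand), which joins FANCA to the complex, fell most, from 39.8 and 45.7 CPM to 19.9 and 24.8 (-0.94, SE 0.111, adjusted p = 6.01e-06). FANCA, its direct partner, was at 35.0 and 33.8 CPM against 32.1 and 29.9 (-0.15, SE 0.0875, adjusted p = 0.162), lower in both libraries by an amount that did not pass the test. FANCC fell from 38.6 and 34.9 CPM to 25.1 and 24.3 (-0.57, SE 0.0919, adjusted p = 1.05e-04). FANCE, which connects FANCC to FANCD2, was at 5.25 and 6.0 CPM against 4.85 and 7.01 (0.075, SE 0.212, adjusted p = 0.786), and its shUBXN1 libraries lay on either side of both controls. FANCF, the adaptor that links these pairs, fell from 18.9 and 16.1 CPM to 11.4 and 12.2 (-0.57, SE 0.125, adjusted p = 0.00131). In the catalytic module, FANCL, the ubiquitin ligase itself, fell from 19.9 and 20.6 CPM to 15.9 and 16.3 (-0.33, SE 0.106, adjusted p = 0.0161). FANCB, which holds FANCL, fell from 6.15 and 6.30 CPM to 4.0 and 4.14 (-0.61, SE 0.197, adjusted p = 0.0163). FANCM, the translocase that anchors the complex on DNA, fell from 13.2 and 12.2 CPM to 9.42 and 10.4 (-0.36, SE 0.134, adjusted p = 0.0332).

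The calls of FANCB, FANCL and FANCM were lost in some settings, while those of FANCC, FANCF and FANCG held in every setting run. Without shCon replicate 1 the adjusted p of FANCB was 0.0570, that of FANCL 0.0525 and that of FANCM 0.205, at log2 fold changes of -0.63, -0.36 and -0.30. Without shCon replicate 2 they were 0.0587, 0.106 and 0.0559, and without shUBXN1 replicate 1 that of FANCM was 0.0940. With DESeq2 the calls of FANCB (-0.61, adjusted p = 0.0647), FANCL (-0.33, adjusted p = 0.0745) and FANCM (-0.36, adjusted p = 0.128) were lost at the same size of change. The changes of FANCL and FANCM were smaller, and their calls lost, under total count scaling (-0.25, adjusted p = 0.0602, and -0.28, adjusted p = 0.0928) and with the GC trend removed (-0.25, adjusted p = 0.0586, and -0.30, adjusted p = 0.0734). FANCM was also not called with limma on TPM (-0.23, adjusted p = 0.221). The direction stayed negative for all 3 genes in these fits.

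Transcripts of the step from the core complex to FANCD2 and FANCI were lower throughout, with all 4 genes falling and a summed level, in TPM, of 59% of the control. Ubiquitination itself was not measured. UBE2T (chr1:202331544-202341984, minus strand), the conjugating enzyme that hands ubiquitin to FANCL, had the largest fall of the 43 genes and was also, per length, the most abundant of them in shCon, at 117 TPM. It was at 49.3 and 53.3 CPM in shCon and 21.9 and 26.1 in shUBXN1, which is 46.9% of the control level (-1.09, SE 0.0970, adjusted p = 3.58e-07). The substrates fell by unequal amounts. FANCI fell from 119.9 and 119.5 CPM to 74.4 and 74.2, the libraries of each group being nearly equal (-0.69, SE 0.0714, adjusted p = 1.65e-06). FANCD2 fell from 72.9 and 75.7 CPM to 59.6 and 57.3 (-0.35, SE 0.0746, adjusted p = 0.00121). FAN1, a nuclease that binds ubiquitinated FANCD2, fell from 46.9 and 46.5 CPM to 31.8 and 31.1 (-0.57, SE 0.0810, adjusted p = 3.54e-05).

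The 7 checkpoint kinases and activators went both ways, with 4 genes lower, 1 higher and 2 not past the threshold (median -0.27). ATM (chr11:108223044-108369102, plus strand), the kinase that answers double-strand breaks, was the 1 gene of the 43 that rose, at 82.3 and 76.7 CPM in shCon and 117 and 85.9 in shUBXN1 (0.35, SE 0.112, adjusted p = 0.0155). Its shUBXN1 libraries lay above both controls but were wide apart, and the rise rested on replicate 1: without shUBXN1 replicate 1 the log2 fold change was 0.11 (adjusted p = 0.227), and without shUBXN1 replicate 2 it was 0.54 (adjusted p = 3.52e-07). The rise was also not called without shCon replicate 2 (0.28, adjusted p = 0.0951), with DESeq2 (adjusted p = 0.195) or with limma on TPM (adjusted p = 0.132). ATR, the kinase that answers single-stranded DNA at stalled forks, was at 97.4 and 90.3 CPM against 103 and 97.0, with overlapping groups (0.091, SE 0.0757, adjusted p = 0.324). Its partner ATRIP was at 12.4 and 13.1 CPM against 10.3 and 10.8 (-0.27, SE 0.129, adjusted p = 0.0853), lower in both libraries without passing the test.

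The ATR activator, the adaptor and both effector kinases were lower. TOPBP1, which activates ATR, fell from 158 and 162 CPM to 103 and 104, with replicates nearly equal in each group (-0.63, SE 0.0713, adjusted p = 3.88e-06). CLSPN, which encodes claspin, the adaptor between ATR and its effector kinase, fell from 40.7 and 43.6 CPM to 24.8 and 29.6 (-0.63, SE 0.0976, adjusted p = 7.49e-05). Of the effector kinases, CHEK2 fell from 13.7 and 14.2 CPM to 9.82 and 10.6 (-0.45, SE 0.128, adjusted p = 0.00795). CHEK1 fell from 49.0 and 47.8 CPM to 37.1 and 43.2 (-0.27, SE 0.0885, adjusted p = 0.0174), a call that was lost without shCon replicate 1 (-0.25, adjusted p = 0.0777), shCon replicate 2 (-0.30, adjusted p = 0.0595) or shUBXN1 replicate 1 (-0.17, adjusted p = 0.102), and under total count scaling (-0.19, adjusted p = 0.0659).

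**Figure D2:**
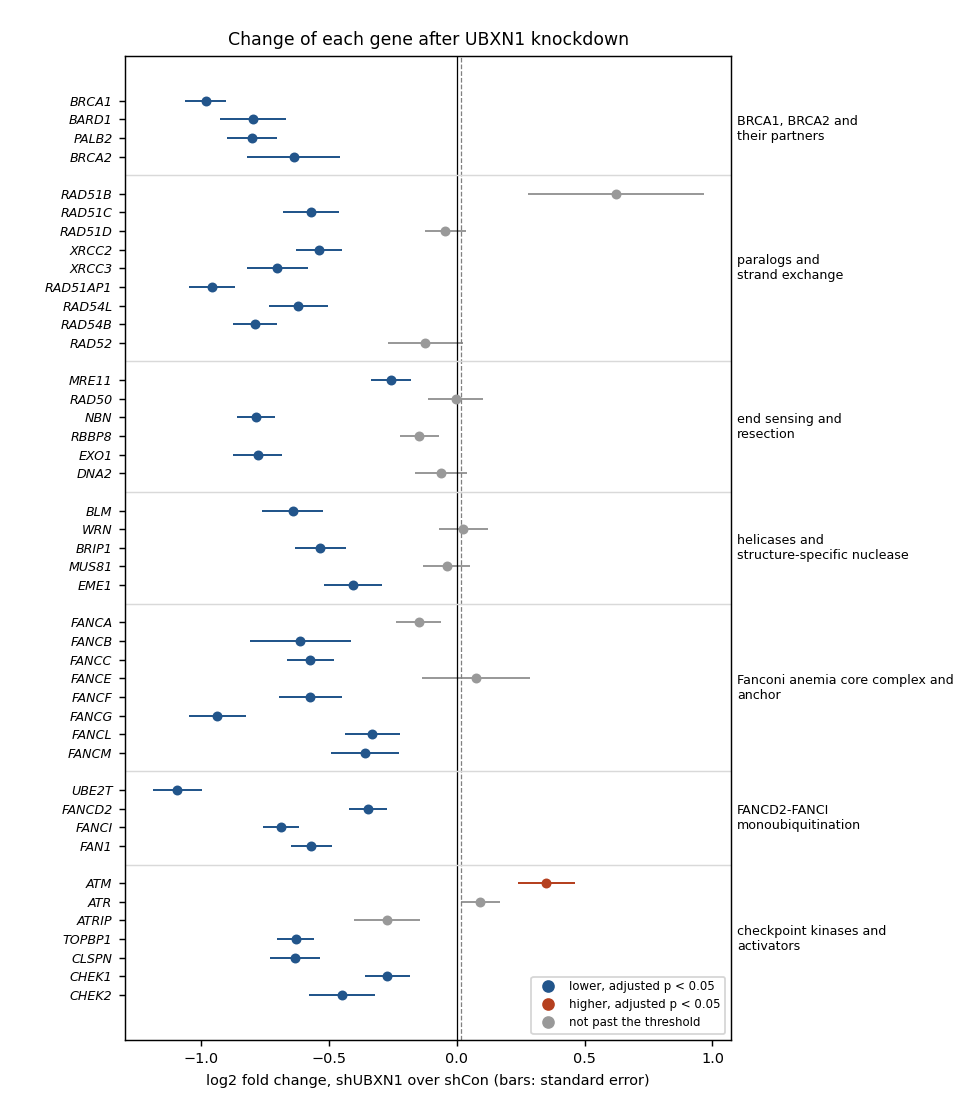
Log2 fold change of each gene, shUBXN1 over shCon, with its standard error as a bar, from edgeR's quasi-likelihood fit on 2 libraries per group. Blue points fell, the red point (ATM) rose and gray points did not pass an adjusted p of 0.05, and the dashed line is the median of all genes tested, 0.016.

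By role, the summed level, in TPM, was 56.6% of the control for BRCA1, BRCA2 and partners, 59% for the FANCD2-FANCI step, 72.7% for the core complex, 74.2% for paralogs and strand exchange, 76.9% for end sensing and resection, 84.9% for the checkpoint genes and 87% for helicases and nuclease. These sums are led by the most abundant genes of each group. Across the 43 genes the log2 fold change had a Spearman correlation of -0.33 with the log2 TPM level in shCon, against -0.37 across all genes tested, and of 0.018 with gene length and 0.14 with GC content, against 0.031 and 0.13. These are descriptions across genes, which are not independent replicates and share the same 4 libraries.

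**Figure D3:**
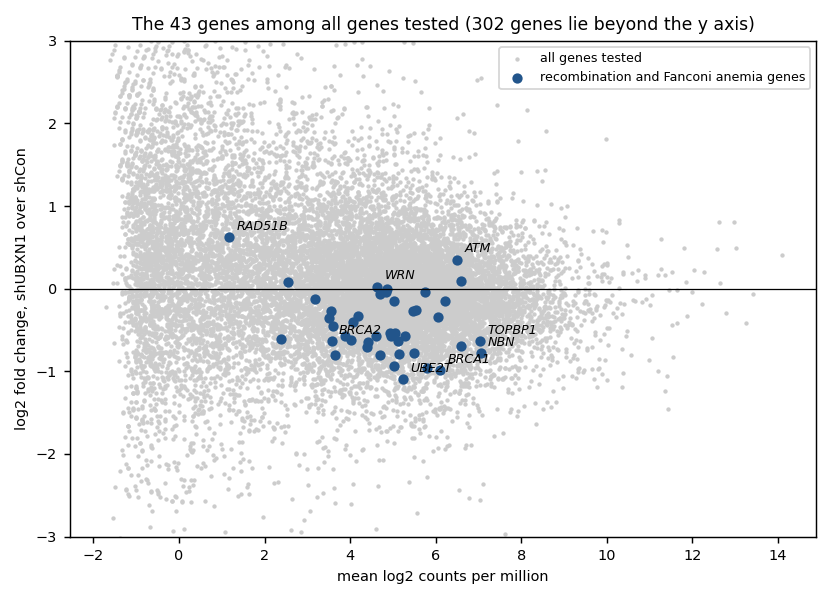
Log2 fold change, shUBXN1 over shCon, against the mean log2 CPM of each gene, with all genes tested in gray and the 43 genes in blue. Most of the 43 lie below 0 at middle levels, between UBE2T at -1.09 and RAD51B at 0.62, and 302 genes lie beyond the range of the y axis.

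Several of the 43 genes share sequence with another gene, and whether strand was used in counting is not given in the sources used here. On the same strand, the exons of RAD50 overlapped those of the readthrough gene ENSG00000283782 over 91.0% of their length, those of RAD54B overlapped FSBP over 65.5% and those of ATRIP overlapped TREX1 over 31.6%, in GENCODE v44 annotation. With the counts of both genes added together, a choice made after seeing the data, the log2 fold change was -0.12 for RAD50 (adjusted p = 0.220), -0.69 for RAD54B (adjusted p = 6.23e-06) and -0.12 for ATRIP (adjusted p = 0.333), and none of the 3 calls changed. On the opposite strand, at least 20% of the exons of XRCC3, FAN1, FANCA, FANCL, RAD54L and EME1 lay over KLC1, MTMR10, ZNF276, VRK2, LRRC41 and LRRC59, so that reads of the pair cannot be told apart if strand was not used. Of these 6 partners, LRRC59, VRK2 and MTMR10 also fell. On the same strand, RAD51D also overlapped ENSG00000267618 and Vault, over 8.03% of the 9966 bases of its canonical exons. Its deposited length was 1528 bases, so the shared part of what was counted may be larger. ENSG00000267618 had a log2 fold change of -0.56 at a mean log2 CPM of 4.85. Its counts were not added to those of RAD51D, so the sharing of reads between them was not tested.

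Many of the 43 genes began next to another gene. For 21 of them (48.8%) another gene began within 1000 bases on the opposite strand, against 29.6% of the 13511 protein-coding genes tested. In 10 pairs the partner passed the filter, and of these partners 2 fell, 2 rose and 6 did not pass the test (median -0.13). DCTN5, a dynactin subunit that starts 156 bases from PALB2, fell with it (-0.68, adjusted p = 4.49e-06), and MRPL27, a mitochondrial ribosomal protein 45 bases from EME1, fell more than EME1 did (-1.11, adjusted p = 5.40e-07). ZFYVE21, beside XRCC3, rose (0.47, adjusted p = 4.32e-04) where XRCC3 fell. TEX14, beside RAD51C, also rose, from at most 0.0375 CPM in shCon to 1.29 and 1.02 in shUBXN1. The partners NBR2 of BRCA1 (-0.40, adjusted p = 0.324), C12orf4 of RAD51AP1 (-0.19, adjusted p = 0.0889) and NPAT of ATM (-0.06, adjusted p = 0.606) did not pass the test.

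Further genes of the same pathway, taken from a list of 51, had log2 fold changes with a median of -0.32. Of these genes 27 were lower (52.9%, against 28.2% of all genes tested), 6 were higher and 18 did not pass the threshold. The largest falls were of SMC5, a subunit of a DNA repair complex of the cohesin family, from 110.4 and 104 CPM to 43.2 and 34.1 (-1.47, SE 0.0979), and of UHRF1, which maintains DNA methylation and binds crosslinks, from 175 and 186.5 CPM to 63.6 and 72.8 (-1.41, SE 0.0829). The largest rises were of FAAP20, a core complex subunit that binds FANCA, from 15.3 and 16.0 CPM to 29.5 and 25.6 (0.82, SE 0.108), and of RNF168, the ubiquitin ligase that marks chromatin around breaks, from 41.6 and 43.5 CPM to 67.4 and 72.1 (0.71, SE 0.0781). In this list 6 genes rose, among the 43 ATM alone did, and of all genes tested 28% rose.

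In other repair lists the changes went both ways, as among all genes tested, of which 28.2% fell and 28% rose. The share that fell was 44.4% for end joining, 43.3% for excision and mismatch repair and 10% for other checkpoint genes. Of 18 end joining genes, 8 fell and 5 rose (median -0.25), with the ligation factor XRCC4 (-1.02) and the shieldin subunit SHLD2 (-0.90) lowest and LIG4 (0.93), the ligase that XRCC4 holds, and the polymerase POLM (0.81) highest. Of 30 excision and mismatch repair genes tested, 13 fell and 10 rose (median -0.06), with the endonuclease APEX1 (-1.19) lowest and the glycosylase NEIL1 (1.61) and the polymerase POLB (1.44) highest. Of 10 other checkpoint genes, 1 fell, TIPIN (-0.70), and 2 rose, RAD17 (0.56) and WEE1 (0.30).

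DNA replication and mitotic genes fell almost throughout, with lower medians than the 43 genes. The shares that fell were 96.9% for replication and 95.5% for mitotic genes, against 28.2% of all genes tested. Of 32 replication genes 31 fell and all 32 log2 fold changes were negative (median -0.76), with the clamp loader subunit RFC2 at 43.5 and 43.9 CPM against 13.3 and 13.2 (-1.72, SE 0.0933) and the helicase cofactor CDC45 at 39.8 and 39.8 against 12.1 and 15.0 (-1.56, SE 0.110). Of 22 mitotic genes 21 fell and all 22 values were negative (median -0.70), with the spindle motor KIF11 (-1.52, SE 0.0828) and the cyclin CCNB1 (-1.28, SE 0.0772) lowest. A 2-fold fall was reached by 8 genes of each of these lists and by 1 of the 43. The part of these cell cycle genes in the lower level of the 43 was not tested.

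Other features of the libraries moved with the knockdown as well. Counts on the mitochondrial genome made up 5.28% and 5.59% in shCon and 7.43% and 8.27% in shUBXN1. The 10 hepatocyte and HCC markers, all above 0, summed to 5400 and 5450 TPM in shCon and 4640 and 5050 in shUBXN1, but this sum is carried by KRT8, at 74.0% of its control level, and KRT18, at 124%. Of these 10 markers 6 fell, 2 rose and 2 did not pass the test. Their log2 fold changes had a median of -0.50 and a range from -4.02 to 0.40. The 4 that fell at least 2-fold encode secreted liver proteins. AFP, APOA1 and SERPINA1, which are also listed and also encode secreted liver proteins, were not among these 4. Albumin (ALB) was at 18.0 and 17.1 CPM in shCon and 4.2 and 4.78 in shUBXN1, or 25.6% of the control level (-1.97, SE 0.144), and APOB was at 27.7% (-1.85, SE 0.178). TTR (-3.08, SE 0.545) and the fibrinogen chain gene FGB (-4.02, SE 0.283) fell further from low control levels of 1.43 and 1.45 CPM and of 9.71 and 9.96 CPM. Markers of other cell types were low in both groups, at 25.2 and 24.8 against 12.6 and 13.7 TPM for 6 fibroblast genes, 121 and 130 against 152 and 139 for 6 leukocyte genes, most of it CD68, and 15.2 and 15.3 against 32 and 32.3 for 5 endothelial genes. Of the 3 fibroblast genes that passed the filter, 2 fell and 1 rose, with log2 fold changes from -3.16 to 3.11. Of 4 leukocyte genes that passed it 2 fell and 1 rose, and of 3 endothelial genes 2 rose and 0 fell. CD3E was at 0 in all 4 libraries, and PTPRC, PDGFRB, CDH5 and TEK were near 0. The part of these features in the changes of the repair genes was not tested.

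**Figure D4:**
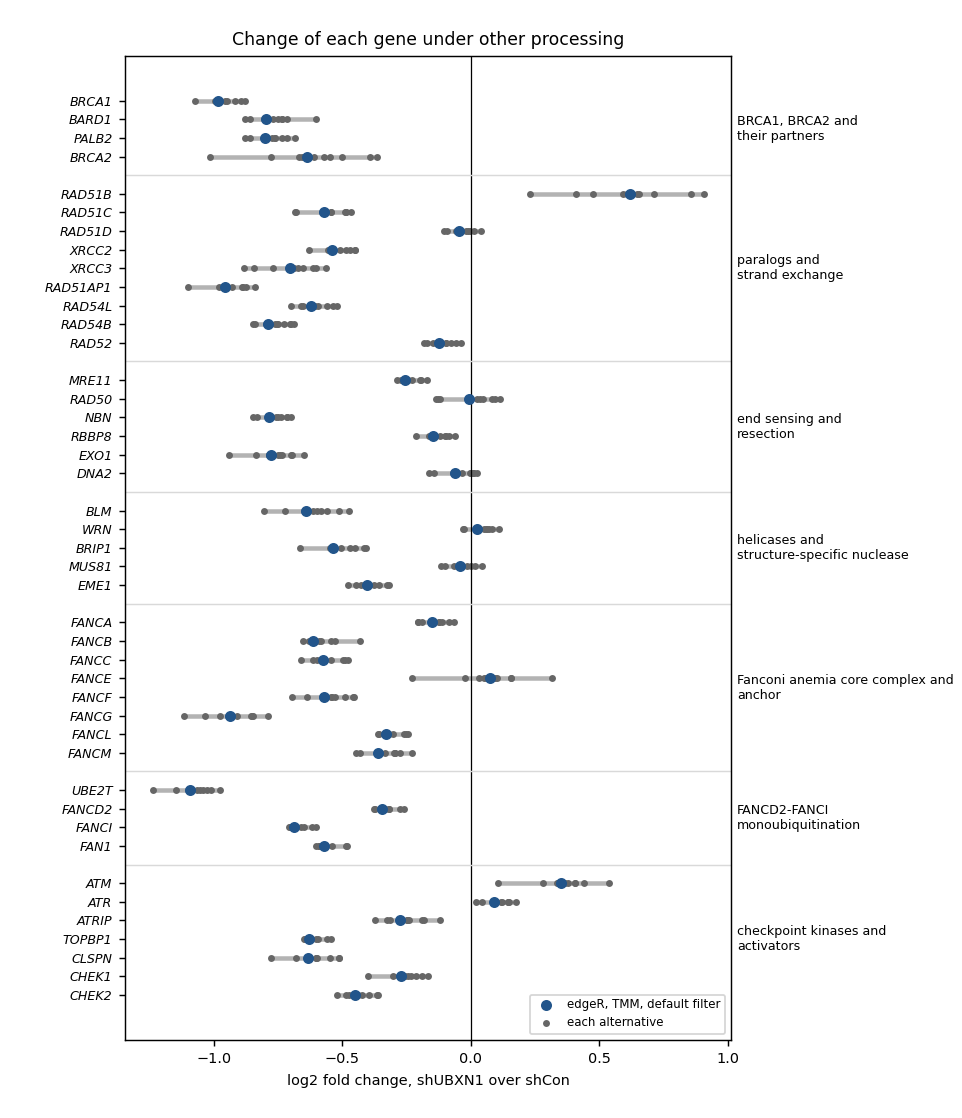
Log2 fold change of each gene, shUBXN1 over shCon, in the reported fit (blue) and under each alternative (gray points, joined by a bar). For the 30 genes that fell, every point lies below 0, with the widest spread for BRCA2, from -1.02 to -0.36, and the points of ATM run from 0.11 to 0.54.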

How the data were processed

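RNA from MHCC97H cells was measured in 4 libraries, 2 per group, with groups and replicate numbers taken from the sample labels. The study's methods name paired-end Illumina sequencing, HISAT2 and GRCh38, a TruSeq kit, TPM and limma. The labels name a VAHTS mRNA kit, and the submitters' processing notes list HISAT2 2.0.4, StringTie 1.3.0 and GRCh37, so the build of the counts is uncertain, and coordinates and sequences printed here come from GENCODE v44 and RefSeq on GRCh38, not from the counts. The authors deposited expected counts per gene, not normalized, with a gene length; 62.4% to 64.6% of the values above 0 in a library were whole numbers, within 1e-09. The counting tool's role, annotation and strand setting are not given in the sources used here.

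Expected counts were rounded, filtered with filterByExpr, scaled by TMM (factors 0.968 to 1.06) and tested by the quasi-likelihood method of edgeR 4.0.16 (R 4.3.3; glmQLFit, then glmQLFTest), without a block, with Benjamini-Hochberg adjustment over 16863 genes. Standard errors are log2 fold changes over the root of the F statistic. With 2 residual degrees of freedom per gene (biological coefficient of variation 0.0711), precision rests on spread shared across genes. TPM used the deposited lengths. These are 1528 bases for RAD51D, 1670 for CHEK1 and 2684 for MRE11, whose canonical transcripts have 9966, 4128 and 6841. The TPM of these genes may therefore be too high, and with it their weight in the sums by role. The test was also run on counts simulated from its own fitted means and spread, with far fewer genes changed than here. That run cannot show whether its model suits these data.

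The 43 genes, their role groups and the comparison lists were chosen with earlier results of these data known, so the pattern is not independent evidence. All 43 genes and UBXN1 are named, and of each comparison list the 2 largest falls and rises past an adjusted p of 0.05, except that 1 gene under this rule is not reported here. Alternatives were DESeq2 1.42.0, total count scaling, limma 3.58.1 on log2(TPM + 1), limma-voom, no filter, at least 10 counts in every library, a replicate block and leaving out each library. A GC correction and summed counts of overlapping genes were added after seeing the data.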

Additional observations from a re-analysis of the deposited data

How the results depend on the processing

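Of the 30 genes that fell, 24 kept their call in every setting run, 6 (BRCA2, MRE11, FANCB, FANCL, FANCM and CHEK1) lost it in 1 setting or more, and 0 turned direction. The count of genes that fell was 27 with DESeq2, 25 under total count scaling, 27 with limma on log2(TPM + 1), 30 with limma-voom, without the filter and with at least 10 counts in every library, and 29 with the GC trend removed. The count that rose was 0 with DESeq2 and with limma on TPM. The median of the 43 moved from -0.54 to -0.45 under total count scaling (where that of all genes was 0.10), -0.41 with limma on TPM, -0.51 at the minimum of 10 counts and -0.49 with the GC trend removed, and at 2 decimals stayed at -0.54 without the filter, with DESeq2 and with limma-voom. Leaving out 1 library in turn gave 25 to 31 genes lower, 0 to 2 higher, 1 to 3 lower at 2-fold, 0 higher at 2-fold, medians of -0.54 to -0.47 and UBXN1 at -2.13 to -1.94. The arm with 1 library was then assumed to vary like the other.

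Only genes that did not pass the test turned direction. Under total count scaling RAD51D was at 0.040, RAD50 at 0.083, DNA2 at 0.024 and MUS81 at 0.044. With limma on TPM RAD51D was at 0.014, RAD50 at 0.048 and MUS81 at 0.017. RAD50 was at 0.023 with at least 10 counts and 0.038 with the GC trend removed. Over the fits without 1 library, RAD50 ran from -0.13 to 0.11, DNA2 from -0.16 to 0.011, WRN from -0.029 to 0.062, MUS81 from -0.099 to 0.00096 and FANCE from -0.23 to 0.32. ATRIP passed with the GC trend removed (-0.37, adjusted p = 0.0237). The cause of these shifts was not tested.

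With a replicate block, 30 genes fell, 1 rose and the median was -0.54, so no call of the 43 changed. The numbers are not said to mark a shared batch. Deviations of same-numbered libraries had a correlation of 0.138 over 10674 genes, from 2 pairs.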
